A study of Mus musculus with 10 samples.

Results

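Toll-like receptors, their adaptors and kinases, the NOD receptors, the inflammasome and the NF-kappaB proteins that act downstream of them were followed through ulcer tissue of db/db mice, which lack a working leptin receptor and become obese and diabetic. The genes were a list of 41 symbols, and all 41 were found among the 55421 rows of the deposited table. Of these, 39 passed the low-count filter and were tested. Tlr9 and Tlr11 did not pass it. Ulcers were made by surgical excision. The ointment group received saline with Fu Huang ointment (5 libraries) and the saline group received saline (5 libraries), and tissue was taken after 7 days of administration. The labels give neither age nor sex, and they do not say whether the libraries come from separate animals. The p-values here therefore reflect variation among the libraries, part of which may be technical. Totals were 47.8 to 62.9 M (mega) estimated counts per library with ointment and 58.1 to 62.7 M with saline. Levels are given as CPM, counts scaled to library size with TMM factors, and fold changes are ointment over saline on the log2 scale from edgeR.

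Toll-like receptors recognise conserved microbial molecules and products of damaged cells at the cell surface or in endosomes. Most of them signal through the adaptor MyD88 to IRAK kinases and the ubiquitin ligase TRAF6, which lead to release of NF-kappaB from its inhibitors. NOD1 and NOD2 sense fragments of bacterial cell walls in the cytosol, while inflammasome sensors assemble with the adaptor ASC (the product of Pycard) to activate caspase 1, which matures interleukins and cleaves the pore protein gasdermin D. In skin wounds these receptors are carried by macrophages, neutrophils and keratinocytes.

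No gene of the list passed the threshold. At an adjusted p under 0.05 by edgeR, 0 of the 39 were called, where 1.67% of all 18509 tested genes were. At an unadjusted p under 0.05, 9 were higher with ointment (8.59% of all tested genes) and 1 was lower (8.56%). The 9 were Tlr2, Tlr6, Tlr7, Irak3, Nlrc4, Aim2, Gsdmd, Nfkbia and Tnfaip3, and the lower one was Nod1. DESeq2, run as an alternative, called 5 higher (4.83% of all genes it tested) and 1 lower (4.47%). Those were Tlr2 (adjusted p = 0.0288), Tlr7 (0.0423), Gsdmd (0.0198), Nfkbia (0.0353), Tnfaip3 (0.0330) and, as the lower one, Nod1 (0.00658). limma voom called 0. The groups did not overlap for 0 genes in the higher direction (3.11% of all tested genes) and for 1, Nfkb1, in the lower direction (3.44%). Fold changes were positive for 28 of the 39 (71.8%), against 49.7% of all tested genes, and their median was 0.33 against -0.0025 over all tested genes. The median was 0.18 without ointment 5 and 0.17 with 4 libraries per group (without ointment 5 and saline 1).

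**Figure D1:**
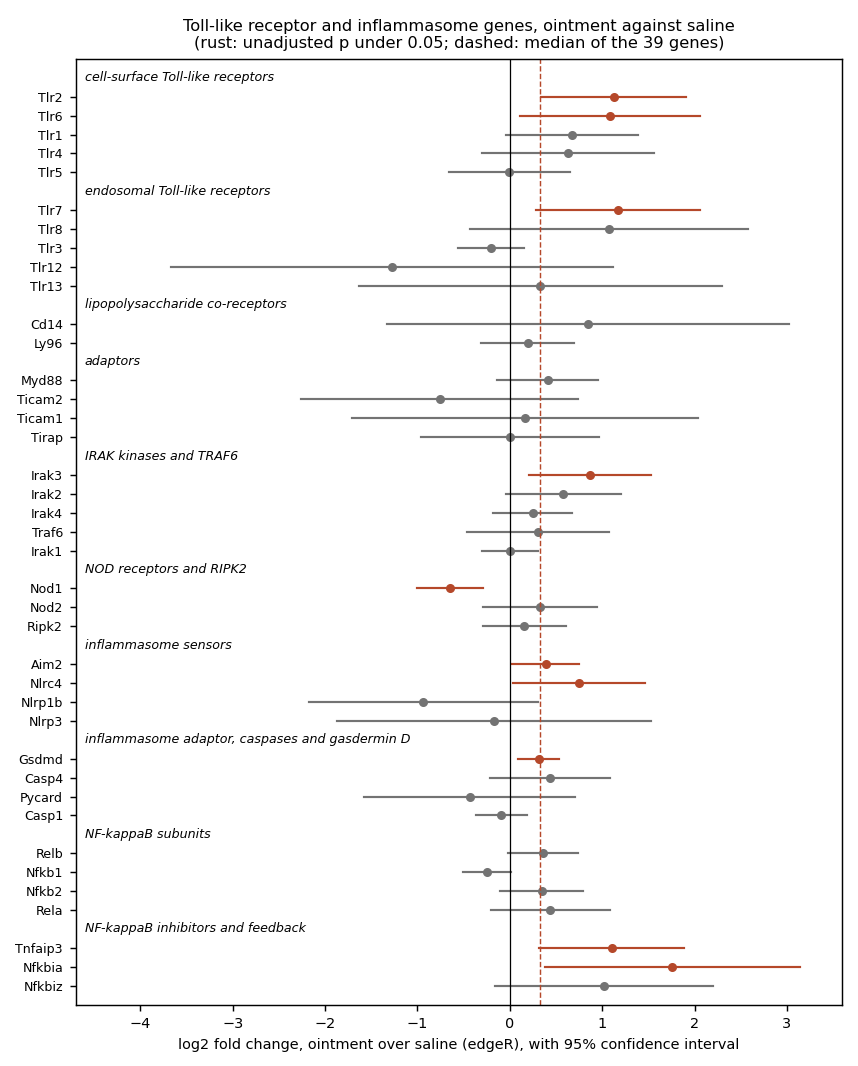
Log2 fold change of each of the 39 tested genes, ointment over saline, with its 95% confidence interval, grouped by role; rust marks an unadjusted p under 0.05 and the dashed line is the median of the 39 genes, 0.33. Most points lie to the right of 0 and most intervals cross it; Nod1 is the single rust point to the left.

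A pair of libraries stood at the ends of the range. Ointment 5 held the highest level of 21 of the 39 genes (53.8%), against 17.6% of all tested genes. Saline 1 held the lowest level of 16 (41.03%), against 12.5% of all tested genes. Saline 3 came next among the lowest, with 7. Of the genes with a log2 fold change of at least 0.1 in size, leaving out ointment 5 moved the value by over 1.5 times for 19 and leaving out saline 1 for 6, and those values are given with each gene. Marker genes of neutrophils were at their extremes in these libraries too. The summed level of 10 neutrophil markers was 2284, 5021, 3269, 1689 and 7824 CPM in ointment libraries 1 to 5, against 852, 1934, 1316, 2729 and 1059.7 CPM in saline libraries 1 to 5. S100a8 and S100a9, which wound keratinocytes also make, held 80.6% to 96.4% of it. The other 8 markers summed to 241 to 1515 CPM with ointment and 30.3 to 277 CPM with saline. Both sums were highest in ointment 5 and lowest in saline 1, although Mmp8 was highest in ointment 2, and the part of neutrophils in the results was not tested. In bulk tissue, fewer cells of a type and less RNA per cell cannot be told apart.

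**Figure D2:**
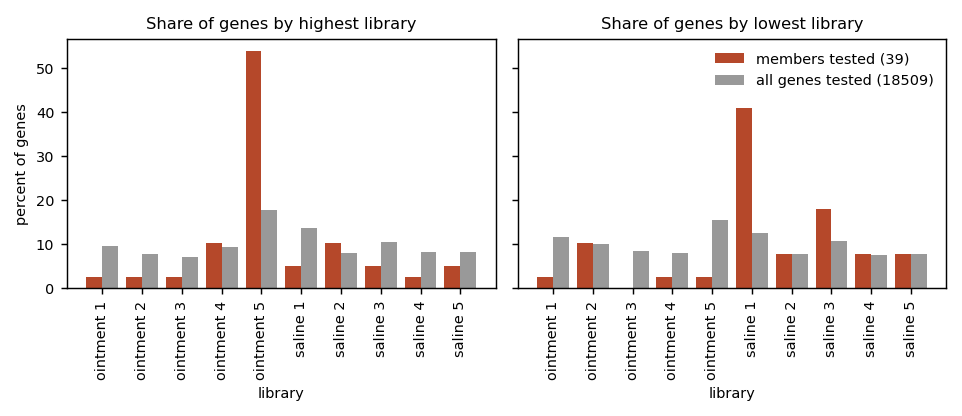
Share of genes, in percent, whose highest (left) or lowest (right) level fell in each library, for the 39 tested genes of the list (rust) and all 18509 tested genes (grey). Ointment 5 takes 53.8% of the highest levels of the list and saline 1 takes 41.03% of the lowest, both far above the grey bars beside them.

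**Figure D3:**
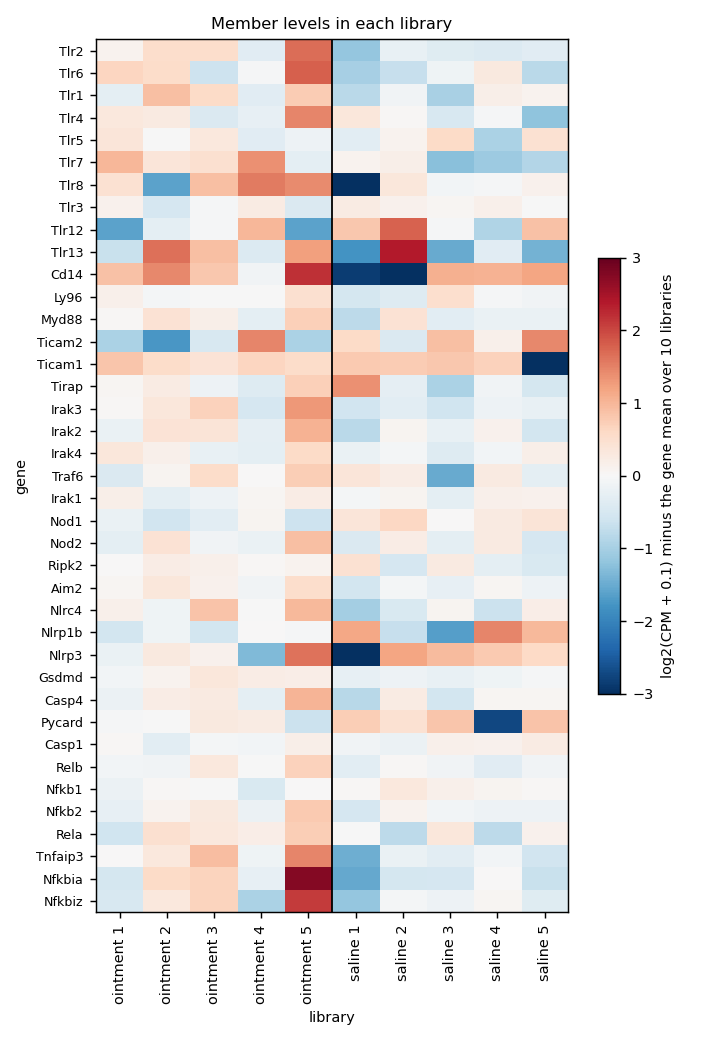
Level of each of the 39 tested genes in each library as log2(CPM + 0.1) minus the gene's mean over the 10 libraries, with the ointment libraries left of the black line and the saline libraries right of it. The ointment 5 column is red for most genes, the saline 1 column is blue for many, and dark blue saline cells stand out for Cd14 (2 cells) and for Ticam1, Nlrp3, Pycard and Tlr8 (1 cell each); colours stop at 3 in each direction.

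Of the 5 cell-surface Toll-like receptors, 4 had positive fold changes and 0 passed the threshold, with Tlr2 nearest to it. Tlr2 (chr3:83836272-83841767 on GRCm38), the receptor for lipoproteins that pairs with the products of Tlr1 and Tlr6, measured 90.5, 121, 122, 66.7 and 268 CPM in ointment libraries 1 to 5, against 37.9, 72.3, 65.4, 63.7 and 67.0 CPM in saline libraries 1 to 5. In 4 of 5 ointment libraries Tlr2 was above every saline library, and ointment 4 lay below saline 2 and saline 5. Its mean was 134 ± 78.4 CPM with ointment and 61.3 ± 13.5 CPM with saline (SD, n = 5 each; log2 fold change 1.12 with SE 0.35; edgeR adjusted p = 0.137). The value was 0.71 (adjusted p = 0.214) without ointment 5, and 0.98 (adjusted p = 0.261) without saline 1. Tlr6 measured 24.9, 23.1, 10.3, 15.5 and 54.7 CPM in ointment libraries 1 to 5, against 7.82, 9.74, 14.5, 19.4 and 9.05 CPM in saline libraries 1 to 5. Ointment 1, 2 and 5 exceeded every saline library, and ointment 3 and 4 lay within the saline range (log2 fold change 1.08 with SE 0.44, adjusted p = 0.241). Without ointment 5 the value of Tlr6 was 0.61 (adjusted p = 0.496). Tlr1 measured 33.3, 76.6, 61.6, 32.6 and 69.8 CPM in ointment libraries 1 to 5, against 23.2, 38.4, 20.8, 46.0 and 44.1 CPM in saline libraries 1 to 5. Ointment 2, 3 and 5 were above all saline libraries and ointment 1 and 4 were not (log2 fold change 0.67 with SE 0.32, adjusted p = 0.326). Of the 50-base words in their transcripts, 15.4% of those of Tlr1 and 12.3% of those of Tlr6 occurred in another gene, mostly in each other, so counts of this pair could be divided differently. Tlr4, the receptor for lipopolysaccharide, spanned 2.44 to 9.35 CPM with ointment and 1.40 to 4.26 CPM with saline (log2 fold change 0.63, adjusted p = 0.510), and its value was 0.19 without ointment 5. Tlr5, the receptor for flagellin, spanned 6.25 to 10.4 CPM with ointment and 4.07 to 11.9 CPM with saline (log2 fold change -0.0077, adjusted p = 0.995).

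Of the 5 endosomal receptors tested, most of which sense nucleic acids, 3 were positive, 2 were negative and 0 passed. Tlr7, a receptor for single-stranded RNA, measured 12.7, 8.02, 8.75, 16.4 and 5.11 CPM in ointment libraries 1 to 5, against 6.72, 7.06, 2.58, 2.89 and 3.34 CPM in saline libraries 1 to 5. Ointment libraries 1 to 4 were above every saline library while ointment 5, the top library for Tlr2, was within the saline range (log2 fold change 1.17 with SE 0.40, adjusted p = 0.167). Without ointment 5 the value was 1.34 (adjusted p = 0.159). Tlr8 measured 5.60, 1.27, 7.70, 12.2 and 11.1 CPM in ointment libraries 1 to 5, against 0.399, 5.22, 3.85, 4.02 and 4.46 CPM in saline libraries 1 to 5. Ointment 2 and saline 1 were far below their own groups, and the other 4 ointment libraries exceeded all saline libraries (log2 fold change 1.08 with SE 0.68, adjusted p = 0.479). Tlr3, the receptor for double-stranded RNA, measured 19.7, 12.8, 17.8, 21.4 and 13.4 CPM in ointment libraries 1 to 5, against 21.3, 19.8, 18.7, 20.1 and 17.8 CPM in saline libraries 1 to 5. The saline levels were close together and the ointment levels lay on both sides of them (log2 fold change -0.20 with SE 0.16, adjusted p = 0.601). For Tlr3 the value without ointment 5 was -0.13 (adjusted p = 0.819). Tlr13, which in mice recognises bacterial ribosomal RNA, spanned 2.86 to 14.5 CPM with ointment. In the saline group it reached 24.0 CPM in saline 2, while libraries 1, 3, 4 and 5 gave 1.25 to 3.57 CPM. Its log2 fold change was 0.33 (adjusted p = 0.907), and 2.02 (adjusted p = 0.137) without saline 2, 0.20 without ointment 5 and 0.05 without saline 1. Tlr12 was at 0 CPM in ointment 1 and 5 and at most 0.932 CPM anywhere (log2 fold change -1.28, adjusted p = 0.621). Tlr9, the receptor for unmethylated DNA, and Tlr11 were close to 0 in most libraries and between 0.875 and 2.15 CPM in the others. Tlr9 spanned 0 to 1.88 CPM with ointment and 0.0165 to 2.15 CPM with saline, and Tlr11 spanned 0 to 1.07 CPM with ointment and 0 to 1.85 CPM with saline. Fitted with no low-count filter, their log2 fold changes were -1.27 (adjusted p = 0.751) and -0.025 (adjusted p = 0.998).

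Cd14 and Ly96, whose products present lipopolysaccharide to TLR4, did not pass. Cd14 measured 335, 495, 318, 169 and 830.3 CPM in ointment libraries 1 to 5, against 25.1, 3.59, 379, 373 and 413 CPM in saline libraries 1 to 5. Saline 1 and 2 were far below the other 3 saline libraries, which sat inside the ointment range (log2 fold change 0.85 with SE 0.98, adjusted p = 0.741). Leaving out ointment 5 gave 0.46 (adjusted p = 0.918), and leaving out saline 1 gave 0.54 (adjusted p = 0.879). With saline 1 and 2 both left out, a comparison chosen after seeing them, the value was 0.16 (adjusted p = 0.946). Ly96, which encodes the MD-2 subunit of the TLR4 complex, measured 6.39, 5.46, 5.66, 5.66 and 7.97 CPM in ointment libraries 1 to 5, against 3.91, 4.37, 8.15, 5.54 and 5.30 CPM in saline libraries 1 to 5. The saline range enclosed every ointment library for Ly96 (log2 fold change 0.19 with SE 0.23, adjusted p = 0.750). Ly96 gave 0.087 (adjusted p = 0.936) without ointment 5 and 0.082 (adjusted p = 0.928) without saline 1.

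Such isolated low values recurred in the saline group. Nlrp3 was at 4.13 CPM in saline 1 and at 106 to 159.6 CPM in the other 4. Pycard was at 15.3 CPM in saline 4 and at 139 to 184 CPM in the other saline libraries. Ticam1 was at 0.0496 CPM, 3 counts, in saline 5 and at 15.6 to 17.0 CPM in the others. Saline 1 was a low library for Cd14, Nlrp3 and Tlr8, and the other low values were in saline 2, 4 and 5. A wide saline range also arose from 1 high value, since Tlr13 was at 24.0 CPM in saline 2. Among the 35 genes of the list with a mean of at least 5 CPM, the highest saline level was over 10 times the lowest for 6 (17.1%), against 4.95% of all 12303 tested genes at that level. The 6 were Cd14, Nlrp3, Pycard, Ticam1 and Tlr8, each with low libraries, and Tlr13. The same was true of 0 of the 35 in the ointment group, against 4.93% of all such genes. Nfkbia (9.79 times) and Tlr8 (9.57 times) came close to that limit with ointment. The cause of these values was not tested.

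**Figure D4:**
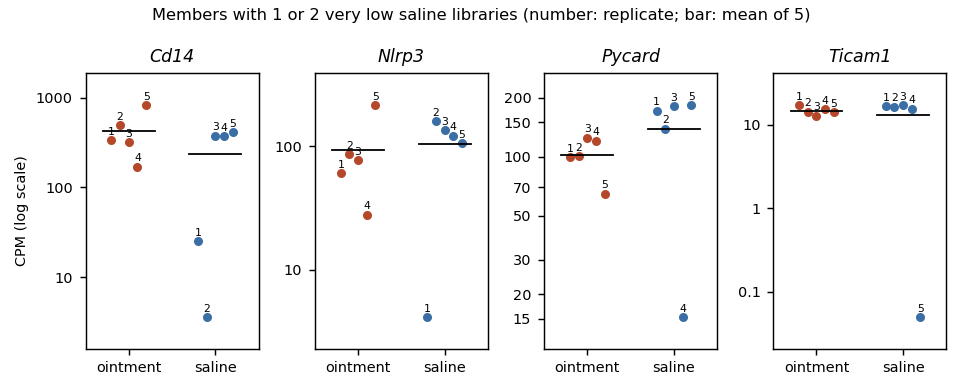
CPM on a log axis for Cd14, Nlrp3, Pycard and Ticam1 in the 5 ointment libraries (rust) and the 5 saline libraries (blue); numbers are replicate numbers and bars are means. Cd14 is low in saline 1 and 2, Nlrp3 in saline 1, Pycard in saline 4 and Ticam1 in saline 5, while no ointment library drops in that way.

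Of the 4 adaptor genes, 2 were positive, 2 were negative and 0 passed. Myd88, the adaptor shared by most Toll-like receptors, measured 81.6, 107, 90.9, 64.7 and 131 CPM in ointment libraries 1 to 5, against 46.1, 108, 64.3, 69.3 and 69.7 CPM in saline libraries 1 to 5. Ointment 5 alone exceeded every saline library (log2 fold change 0.41 with SE 0.24, adjusted p = 0.447). For Myd88 the value without ointment 5 was 0.27 (adjusted p = 0.725). Ticam1, which encodes the adaptor TRIF of TLR3 and TLR4, measured 17.2, 14.3, 12.8, 15.2 and 14.2 CPM in ointment libraries 1 to 5, against 16.7, 16.4, 17.0, 15.6 and 0.0496 CPM in saline libraries 1 to 5. Apart from saline 5 the 2 groups were within a narrow band (log2 fold change 0.16 with SE 0.84, adjusted p = 0.955). Without saline 5 its value was -0.16 (adjusted p = 0.620), and without saline 1 it was 0.25 (adjusted p = 0.947). Ticam2, which encodes TRAM, the partner of TRIF at TLR4, measured 0.533, 0.262, 0.776, 3.28 and 0.530 CPM in ointment libraries 1 to 5, against 1.70, 0.804, 2.17, 1.25 and 3.21 CPM in saline libraries 1 to 5. In 4 ointment libraries it was below every saline library, and in ointment 4 it was above all of them (log2 fold change -0.76 with SE 0.67, adjusted p = 0.646). Without ointment 4 the value of Ticam2 was -1.78 (adjusted p = 0.0891). Ticam2 shares exons with Tmed7, and 14.6% of its 50-base words occurred in another gene, mostly Tmed7, so its level is uncertain. Tirap, the bridging adaptor of TLR2 and TLR4, spanned 5.29 to 11.4 CPM with ointment and 3.54 to 18 CPM with saline (log2 fold change -0.0017, adjusted p = 0.999), with the top saline value in saline 1. Exons of Myd88, Tirap, Irak3, Irak4 and Nfkb2 overlap those of Acaa1a, Srpr, Tmbim4, Twf1 and Psd on the other strand, and reads of such a pair cannot be told apart without strand.

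The 4 IRAK genes and Traf6 all had positive values, the highest in Irak3, and 0 passed. Irak3 (chr10:120141648-120202130), a kinase-dead relative that restrains signalling and is found mainly in macrophages, measured 22.7, 28.4, 36.1, 15.7 and 54.7 CPM in ointment libraries 1 to 5, against 14.9, 17.9, 14.6, 20.1 and 18.9 CPM in saline libraries 1 to 5. Every ointment library except ointment 4 was above all saline libraries. The mean was 31.5 ± 14.9 CPM with ointment and 17.3 ± 2.44 CPM with saline (SD, n = 5 each; log2 fold change 0.87 with SE 0.30, adjusted p = 0.168). Without ointment 5 the value was 0.57 (adjusted p = 0.312). Irak2 measured 30, 45.5, 44.8, 28.5 and 71.3 CPM in ointment libraries 1 to 5, against 19.8, 36.6, 29.7, 37.8 and 23.4 CPM in saline libraries 1 to 5. Ointment 2, 3 and 5 were above the saline range and ointment 1 and 4 were inside it (log2 fold change 0.58 with SE 0.28, adjusted p = 0.330). Leaving out ointment 5 gave Irak2 a value of 0.34 (adjusted p = 0.618). Irak4, the kinase that starts the cascade, measured 20, 17.5, 13.5, 12.7 and 23.6 CPM in ointment libraries 1 to 5, against 13.8, 15.1, 12, 15 and 17.7 CPM in saline libraries 1 to 5. Ointment 1 and 5 exceeded the saline range and the other 3 did not (log2 fold change 0.25 with SE 0.19, adjusted p = 0.585). The value of Irak4 without ointment 5 was 0.12 (adjusted p = 0.860). Traf6 spanned 29.7 to 67.1 CPM with ointment and 14.1 to 52.4 CPM with saline (log2 fold change 0.30, adjusted p = 0.740), with 0.15 (adjusted p = 0.925) without ointment 5. Irak1 spanned 43.9 to 63.6 CPM with ointment and 44.0 to 59.9 CPM with saline (log2 fold change 0.0046, adjusted p = 0.994; 95% confidence interval -0.30 to 0.31).

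Nod1 had the smallest p of the 39 genes and a lower mean with ointment, and neither it nor the other genes of the NOD pathway passed. Nod1 (chr6:54923949-54972612) senses a bacterial peptidoglycan fragment and is made by epithelial cells as well as by leukocytes. It measured 36.6, 28.5, 33.9, 44.7 and 27.4 CPM in ointment libraries 1 to 5, against 54.2, 64.9, 42.9, 51.2 and 55.2 CPM in saline libraries 1 to 5. Ointment 1, 2, 3 and 5 were below every saline library, and ointment 4 lay above saline 3 alone. The mean was 34.2 ± 6.98 CPM with ointment and 53.7 ± 7.93 CPM with saline (SD, n = 5 each), a log2 fold change of -0.65 with a 95% confidence interval of -1.01 to -0.29 (SE 0.16, adjusted p = 0.0759 by edgeR). Nod1 passed the threshold in 1 of the 10 edgeR fits that left out a library, the fit without ointment 4 (-0.75, adjusted p = 0.0438), and its adjusted p reached 0.151 in the others. Its value was -0.58 (adjusted p = 0.257) with 4 libraries per group. Keratinocytes are epithelial cells that make NOD1, and 7 of their 8 markers had negative values. Of the 8, 0 passed in edgeR, 4 were lower at an unadjusted p under 0.05 and DESeq2 called 3 lower. Krt1 (log2 fold change -2.03 with SE 0.45, adjusted p = 0.0564) and Dsp (log2 fold change -0.89 with SE 0.27, adjusted p = 0.124) were lower without overlap. Krt10 gave -1.80 (adjusted p = 0.0778) and Perp gave -1.44 (adjusted p = 0.250). Krt14 (-0.21, adjusted p = 0.659), Krt5 (-0.31, adjusted p = 0.716) and Trp63 (-0.24, adjusted p = 0.835) gave smaller negative values. Dsg3 was positive (0.36, adjusted p = 0.685). The 8 markers summed to 12830 to 22508 CPM with ointment and 19047 to 26946 CPM with saline, of which Krt14 held 45.9% to 79.4%. Without Krt14 the sum was 2699 to 7300.3 CPM with ointment and 8503 to 14429 CPM with saline, with no overlap. The sums of all 8 did overlap. The part of keratinocytes in the Nod1 value was not tested. These markers were named after their values were seen. Nod2, the sensor of muramyl dipeptide, measured 8.80, 14.7, 10.1, 9.41 and 20.4 CPM in ointment libraries 1 to 5, against 8.06, 12.8, 8.89, 13.1 and 7.67 CPM in saline libraries 1 to 5. Ointment 2 and 5 were above the saline range and the others inside it (log2 fold change 0.33 with SE 0.28, adjusted p = 0.627). With ointment 5 left out, Nod2 gave 0.089 (adjusted p = 0.937). Ripk2, the kinase that both NOD receptors use, measured 15.8, 18.2, 17.6, 16.0 and 16.9 CPM in ointment libraries 1 to 5, against 21.5, 11.1, 18.9, 12.8 and 11.4 CPM in saline libraries 1 to 5. All ointment levels of Ripk2 lay inside the wider saline range (log2 fold change 0.16 with SE 0.20, adjusted p = 0.773). Ripk2 gave 0.31 (adjusted p = 0.504) without saline 1.

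Of the 4 inflammasome sensors, 2 were positive, 2 were negative and 0 passed. Aim2, a sensor of cytosolic DNA, measured 17.8, 21.7, 18.6, 15.7 and 24.6 CPM in ointment libraries 1 to 5, against 11.6, 16.3, 14.2, 17.8 and 15.4 CPM in saline libraries 1 to 5. Ointment 1, 2, 3 and 5 were above all saline libraries, ointment 1 by less than 0.1 CPM over saline 4, and ointment 4 was not (log2 fold change 0.39 with SE 0.16, adjusted p = 0.255). Nlrc4, which with NAIP proteins responds to flagellin and secretion systems, measured 5.99, 4.90, 9.93, 5.39 and 10.7 CPM in ointment libraries 1 to 5, against 2.60, 3.94, 5.72, 3.43 and 6.20 CPM in saline libraries 1 to 5. Ointment 3 and 5 exceeded the saline range (log2 fold change 0.75 with SE 0.32, adjusted p = 0.265). Nlrp1b measured 1.11, 1.53, 1.12, 1.70 and 1.63 CPM in ointment libraries 1 to 5, against 3.90, 0.997, 0.463, 4.82 and 3.42 CPM in saline libraries 1 to 5. The ointment levels were tight, whereas saline 1, 4 and 5 were above them and saline 2 and 3 below them (log2 fold change -0.94 with SE 0.56, adjusted p = 0.444). Nlrp3, the sensor of membrane damage and many irritants, measured 60.7, 85.9, 76.7, 27.9 and 216 CPM in ointment libraries 1 to 5, against 4.13, 159.6, 135, 121 and 106 CPM in saline libraries 1 to 5. With saline 1 set aside, ointment 1 to 4 were below each remaining saline library and ointment 5 was above each (log2 fold change -0.17 with SE 0.76, adjusted p = 0.947). The value was -0.74 (adjusted p = 0.772) without ointment 5, -0.50 (adjusted p = 0.738) without saline 1, and -1.05 (adjusted p = 0.258) without both saline 1 and ointment 5.

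Downstream of the sensors 0 of 4 genes passed, 2 were positive and 2 negative, and the gene of the pore protein had the smallest p. Gsdmd (chr15:75862327-75867408), which encodes gasdermin D, measured 64.5, 73.0, 87.0, 79.4 and 78.0 CPM in ointment libraries 1 to 5, against 57.8, 61.7, 58.8, 62.9 and 66.5 CPM in saline libraries 1 to 5. Ointment 1 was below saline 5, the top saline library, and the other 4 ointment libraries were above it. The mean was 76.4 ± 8.31 CPM with ointment and 61.5 ± 3.48 CPM with saline (SD, n = 5 each; log2 fold change 0.31 with SE 0.10, adjusted p = 0.142), and the value without ointment 5 was 0.30 (adjusted p = 0.245). Casp4, which encodes caspase 11, the mouse sensor of cytosolic lipopolysaccharide, measured 33.3, 44.0, 45.5, 30.6 and 77.3 CPM in ointment libraries 1 to 5, against 21.3, 45.0, 25.8, 39.4 and 39.2 CPM in saline libraries 1 to 5. Ointment 3 and 5 were above the saline range (log2 fold change 0.43 with SE 0.29, adjusted p = 0.512). Casp4 gave 0.17 (adjusted p = 0.848) without ointment 5. Pycard, which encodes the adaptor ASC, measured 99.9, 101, 125, 121 and 64.8 CPM in ointment libraries 1 to 5, against 171, 139, 182, 15.3 and 184 CPM in saline libraries 1 to 5. All ointment libraries were below saline 1, 2, 3 and 5 and above saline 4 (log2 fold change -0.43 with SE 0.51, adjusted p = 0.749). Without saline 4 the value was -0.73 (adjusted p = 0.119). Casp1, the caspase of the inflammasome, spanned 39.7 to 55.7 CPM with ointment and 43.2 to 58.4 CPM with saline (log2 fold change -0.091, adjusted p = 0.790; 95% confidence interval -0.37 to 0.18).

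Of the 4 NF-kappaB subunit genes, 3 were positive, Nfkb1 was negative and 0 passed. Relb measured 32.4, 31.9, 42.3, 34.0 and 55.3 CPM in ointment libraries 1 to 5, against 27.6, 35.2, 31.7, 27.0 and 31.5 CPM in saline libraries 1 to 5. Ointment 3 and 5 were above the saline range (log2 fold change 0.36 with SE 0.17, adjusted p = 0.318). Relb gave 0.20 (adjusted p = 0.566) without ointment 5. Nfkb1 (chr3:135584655-135691547), the precursor of p50, measured 87.1, 100.3, 96.9, 71.1 and 98.7 CPM in ointment libraries 1 to 5, against 101, 123, 109.7, 104 and 101 CPM in saline libraries 1 to 5. The groups did not overlap, although the gap between ointment 2 and saline 5 was under 1 CPM (log2 fold change -0.25 with SE 0.12, adjusted p = 0.321). Nfkb1 gave -0.16 (adjusted p = 0.446) without ointment 4. Nfkb2, the precursor of p52, measured 52.8, 67.0, 76.2, 55.5 and 107 CPM in ointment libraries 1 to 5, against 43.8, 66.6, 59.3, 56.3 and 56.4 CPM in saline libraries 1 to 5. Ointment 2, 3 and 5 exceeded every saline library, ointment 2 by under 1 CPM (log2 fold change 0.35 with SE 0.20, adjusted p = 0.433). Leaving out ointment 5 gave Nfkb2 a value of 0.16 (adjusted p = 0.757). Rela, the p65 subunit, spanned 37.9 to 95 CPM with ointment and 33.1 to 72.1 CPM with saline (log2 fold change 0.44, adjusted p = 0.505).

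The 3 inhibitors that NF-kappaB itself induces were positive, with the largest fold change of the 39 genes in Nfkbia, and 0 passed. Nfkbia (chr12:55489410-55492647), which encodes the inhibitor that holds NF-kappaB in the cytoplasm, measured 116, 249.8, 265, 141 and 1135 CPM in ointment libraries 1 to 5, against 57.9, 115, 118, 168 and 105 CPM in saline libraries 1 to 5. Ointment 2, 3 and 5 were above the saline range and ointment 1 and 4 were inside it. The mean was 381 ± 426 CPM with ointment and 113 ± 39.4 CPM with saline (SD, n = 5 each; log2 fold change 1.76 with SE 0.62, adjusted p = 0.181), and without ointment 5 the value was 0.77 (adjusted p = 0.350). Tnfaip3 (chr10:19000910-19015657), which encodes A20, an enzyme that removes activating ubiquitin chains, measured 65.3, 80.7, 124, 59.6 and 179 CPM in ointment libraries 1 to 5, against 23.4, 56.2, 52.3, 60.8 and 43.7 CPM in saline libraries 1 to 5. Every ointment library but ointment 4 was above all saline libraries, and ointment 4 was below saline 4 alone. Tnfaip3 averaged 102 ± 49.9 CPM with ointment and 47.3 ± 14.7 CPM with saline (SD, n = 5 each; log2 fold change 1.10 with SE 0.35, adjusted p = 0.143), with 0.80 (adjusted p = 0.282) without ointment 5. Nfkbiz, an atypical inhibitor that also co-activates some targets in the nucleus, measured 91.9, 160.0, 204, 66.2 and 551 CPM in ointment libraries 1 to 5, against 57.6, 123, 116, 134 and 99.8 CPM in saline libraries 1 to 5. Ointment 4 was the lowest but one of the 10 libraries and ointment 5 the highest (log2 fold change 1.02 with SE 0.53, adjusted p = 0.371). Without ointment 5 the value of Nfkbiz was 0.30 (adjusted p = 0.809).

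**Figure D5:**
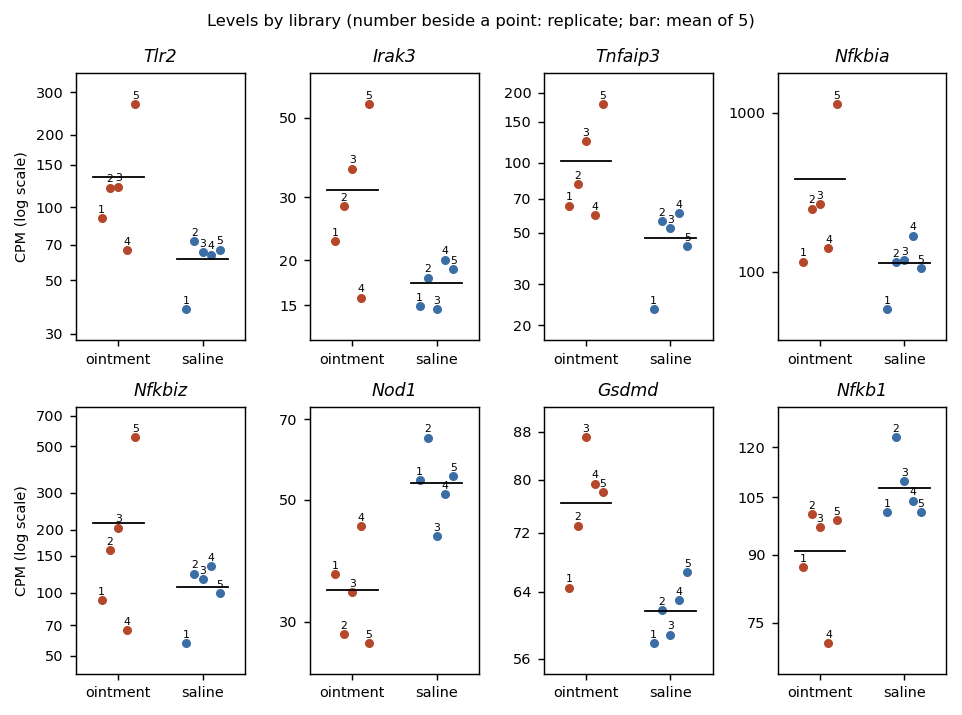
CPM on a log axis for 8 genes of the list in the 5 ointment libraries (rust) and the 5 saline libraries (blue); numbers are replicate numbers and bars are means. Ointment 5 is the top point for Tlr2, Irak3, Tnfaip3, Nfkbia and Nfkbiz, ointment 4 is the ointment point nearest to or inside the saline points for Tlr2, Irak3, Tnfaip3 and Nod1, and the groups are separate for Nfkb1 alone.

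Promoter sequence was set beside these values, since NF-kappaB is known to act on several of these genes. RefSeq windows on GRCm38.p6, from 250 bases before to 50 bases after an annotated start, were found for 31 of the 41 genes. The kappaB consensus, the motif that NF-kappaB binds, searched on both strands with overlapping matches allowed, was present in 8.46% of all 32851 windows. A gene can have several windows, which may overlap and hold the same match, so genes were counted once. At least 1 window held a match for 8 of the 31 genes of the list (25.8%, with 1.39 windows per gene), against 9.55% of all 27025 genes (1.22 windows per gene). The 8 were Tlr2, Tlr3, Irak1, Nlrp3, Casp4, Nfkb2, Nfkbia and Tnfaip3. A narrower form with fewer letters allowed had been searched first and was present in 1.47% of all windows and for 3 genes of the list, and the consensus was adopted after that result was seen. The windows of Nfkbia, Tnfaip3 and Tlr2 are shown because these genes had large positive values. That of Nfkb2 is shown as a subunit gene with adjoining matches, and that of Nod1 because its value was negative. Tlr6 (log2 fold change 1.08) and Tlr8 (1.08) had values close to that of Tnfaip3 (1.10), but their windows held no match and are not shown. No window was found for Tlr7 (1.17) or Nfkbiz (1.02), which also had large positive values. Capitals mark matches to the consensus, and positions count from the annotated start to the first base of a match, negative before it.
Nfkbia (chr12:55492598-55492897, minus strand): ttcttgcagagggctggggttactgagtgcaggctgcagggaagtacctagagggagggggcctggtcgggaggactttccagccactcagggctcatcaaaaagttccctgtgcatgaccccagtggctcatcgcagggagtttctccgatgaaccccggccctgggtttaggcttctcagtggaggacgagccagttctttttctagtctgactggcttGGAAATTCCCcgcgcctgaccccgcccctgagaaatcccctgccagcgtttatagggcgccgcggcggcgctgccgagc
Tnfaip3 (chr10:19015361-19015660, minus strand): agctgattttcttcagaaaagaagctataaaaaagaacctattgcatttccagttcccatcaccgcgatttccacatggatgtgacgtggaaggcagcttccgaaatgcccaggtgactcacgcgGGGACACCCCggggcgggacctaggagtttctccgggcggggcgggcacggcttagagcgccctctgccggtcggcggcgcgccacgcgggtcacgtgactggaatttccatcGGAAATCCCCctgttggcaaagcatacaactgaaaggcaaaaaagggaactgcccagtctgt
Tlr2 (chr3:83841559-83841858, minus strand): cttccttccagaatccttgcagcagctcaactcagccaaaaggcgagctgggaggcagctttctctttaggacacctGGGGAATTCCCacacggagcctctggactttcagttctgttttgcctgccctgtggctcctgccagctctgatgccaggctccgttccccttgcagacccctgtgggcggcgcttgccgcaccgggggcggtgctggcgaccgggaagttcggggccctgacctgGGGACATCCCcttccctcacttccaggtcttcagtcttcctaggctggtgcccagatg
Nfkb2 (chr19:46304487-46304786, plus strand): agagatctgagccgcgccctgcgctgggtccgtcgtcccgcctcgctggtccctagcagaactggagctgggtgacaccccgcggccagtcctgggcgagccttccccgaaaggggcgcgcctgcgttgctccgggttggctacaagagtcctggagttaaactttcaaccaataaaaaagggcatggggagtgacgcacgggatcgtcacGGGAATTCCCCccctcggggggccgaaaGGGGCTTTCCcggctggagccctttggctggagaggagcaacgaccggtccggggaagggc
Nod1 (chr6:54972563-54972862, minus strand): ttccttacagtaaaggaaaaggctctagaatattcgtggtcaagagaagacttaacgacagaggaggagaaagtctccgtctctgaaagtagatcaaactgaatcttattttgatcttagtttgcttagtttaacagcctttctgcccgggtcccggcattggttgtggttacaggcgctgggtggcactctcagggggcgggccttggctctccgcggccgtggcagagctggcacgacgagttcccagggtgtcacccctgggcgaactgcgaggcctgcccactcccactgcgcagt
Nfkbia held 1 match at -29. Tnfaip3 held a match at -125 and a match at -12. Tlr2 held overlapping matches at -173 and -172 and another at -8. Nfkb2 held overlapping matches at -39 and -38 and another at -11. The Nod1 window held no match. Of the 8 genes with a match, 6 had positive log2 fold changes, where 28 of the 39 tested genes of the list (71.8%) did. Among the 6, Irak1 was at 0.0046 and changed sign under several alternatives. Nlrp3 (-0.17) and Tlr3 (-0.20) had negative values. A match describes the sequence and is not a measured site.

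Transcript abundance per length spread over more than 3 orders of magnitude. TPM (counts divided by exon length in GENCODE release 21 and scaled to the library) was highest for Cd14 at 685 ± 349.8 TPM with ointment and 410.4 ± 352 TPM with saline and for Nfkbia at 637 ± 659 TPM with ointment and 211 ± 73.7 TPM with saline. By the ointment mean, Tlr2 came next at 122 ± 61.3 TPM with ointment and 61.0 ± 12.5 TPM with saline, and the SDs of these genes are wide enough that their order is not fixed. Among the Toll-like receptors, the TPM of Tlr2 was followed by that of Tlr1 at 45.8 ± 15 TPM with ointment and 30.9 ± 10.3 TPM with saline and Tlr6 at 19.1 ± 11.3 TPM with ointment and 9.78 ± 3.92 TPM with saline. Tlr4 was far lower, at 2.28 ± 1.2 TPM with ointment and 1.61 ± 0.632 TPM with saline, although its co-receptor gene Cd14 led the list. Casp1 (91.1 ± 10.7 TPM with ointment and 102 ± 11.3 TPM with saline) and Gsdmd (91.5 ± 10.7 TPM with ointment and 77.9 ± 3.09 TPM with saline) had similar levels, within their spread with ointment. Ticam2, Tlr11, Tlr9 and Tlr12 each averaged under 1 TPM in both groups.

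Partners of these genes were read from 72 further genes in 7 lists, of which 71 were found in the table (Mb21d1 was not matched), 70 passed the low-count filter (Nlrp6 did not) and 1 rose, where 1.67% of all tested genes were called. That gene was Naip2 (chr13:100144063-100202092), which in mice encodes a receptor for the inner rod of bacterial secretion systems that activates NLRC4. Naip2 measured 35.1, 35.2, 36.1, 22.3 and 42.4 CPM in ointment libraries 1 to 5, against 14.1, 23.0, 14.7, 17.4 and 15.8 CPM in saline libraries 1 to 5. Ointment 4 was below saline 2 and the other 4 ointment libraries were above every saline library. The mean was 34.2 ± 7.34 CPM with ointment and 17.0 ± 3.6 CPM with saline (SD, n = 5 each; log2 fold change 1.01 with SE 0.19; edgeR adjusted p = 0.0343). Dropping each library in turn left the call standing in 2 of 10 refits, without ointment 4 and without saline 2, and the adjusted p was at most 0.0882 in the others. It was not called with 4 libraries per group (0.86, adjusted p = 0.159). Other genes of the same family gave 0.83 for Naip5 (adjusted p = 0.0627), 2.36 for Naip1 (adjusted p = 0.0757) and 0.56 for Naip6 (adjusted p = 0.321). Naip1 and Naip6, and Il1b further on, were chosen for naming after their values were seen. Between 19.1% and 36.8% of the 50-base words of Naip1, Naip2, Naip5 and Naip6 occurred in another gene, so counts may be divided unevenly among them.

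Of 16 other sensors tested, the list that holds Naip2, 12 were positive and 1 passed. Over the 70 genes, 54 fold changes were positive and the median was 0.34. The groups did not overlap for 6 higher genes (3.11% of all tested genes), which were Tbk1, Ninj1, Casp8, Nek7, Gsdme and Tnip1, and for 1 lower gene (3.44%), Sarm1. DESeq2 called 15 higher (4.83%) and 3 lower (4.47%). In the relay of TAK1, IKK and TBK1, 0 of 12 passed. The kinase genes Tbk1 (log2 fold change 0.44, adjusted p = 0.119) and Ikbke (log2 fold change 0.77, adjusted p = 0.139) had its smallest p values. Of 3 interferon regulatory factors, Irf5 (log2 fold change 0.69, adjusted p = 0.117), which acts downstream of MyD88, and Irf3 (log2 fold change -0.17, adjusted p = 0.445) differed in sign and did not pass. Of 6 chaperone and lipopolysaccharide-handling genes, 0 passed. Among these, Unc93b1, which escorts the endosomal receptors, had log2 fold change 0.39, adjusted p = 0.241, and Cd180 had log2 fold change 0.75, adjusted p = 0.313. Of 10 inflammasome partners and products, 0 passed and 9 were positive. Ninj1, whose product ruptures the plasma membrane after gasdermin pores form, spanned 90.8 to 134 CPM with ointment and 40.5 to 81.7 CPM with saline without overlap (log2 fold change 0.78 with SE 0.19, adjusted p = 0.0749). Il18, an interleukin that caspase 1 matures, was the negative one, with 23.8 to 31.9 CPM with ointment and 29.3 to 44.8 CPM with saline (log2 fold change -0.47 with SE 0.13, adjusted p = 0.104). Il1b, also matured by caspase 1, was 5116 CPM in ointment 5 where ointment libraries 1 to 4 had 243 to 745 CPM, and 8.86 CPM in saline 1, where saline libraries 2 to 5 had 611 to 892 CPM. Of 11 further NF-kappaB proteins and brakes, 0 passed. Tnip1, an A20-binding protein gene, had log2 fold change 0.67, adjusted p = 0.117, and Sarm1 had log2 fold change -1.27, adjusted p = 0.125. Of 12 NF-kappaB output genes, 0 passed and 11 were positive. The chemokine gene Cxcl1 (log2 fold change 4.26 with SE 1.12, adjusted p = 0.0895) and the cytokine gene Il6 (log2 fold change 3.29 with SE 0.96, adjusted p = 0.116) had the smallest p values there, and both were highest in ointment 5 and lowest in saline 1.

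Markers of cells that may carry these receptors were read beside them. Of 12 macrophage and monocyte markers, all 12 were positive and 3 rose: Adgre1 (log2 fold change 0.87 with SE 0.10, adjusted p = 0.00649), Cd68 (log2 fold change 0.78 with SE 0.11, adjusted p = 0.0125) and Trem2 (log2 fold change 0.83 with SE 0.16, adjusted p = 0.0325). At an unadjusted p under 0.05, 7 were higher, and DESeq2 called 5 higher. Their summed level was 6683 to 8658 CPM with ointment and 2712 to 5211 CPM with saline, with no overlap. Lyz2 was the largest part of it in every library, at 3698 to 6207 CPM with ointment and 594 to 3050 CPM with saline. None of the 12 was at 0 in any library. Of 10 neutrophil markers, all 10 were positive and 0 passed in edgeR, 9 were higher at an unadjusted p under 0.05, and DESeq2 called 7 higher. Their median log2 fold change was 1.82, against 0.73 for the macrophage and monocyte markers. Camp and Ngp were at 0 in 1 library. Dendritic cell markers summed to 51.2 to 76.8 CPM with ointment and 52.3 to 70.2 CPM with saline. T, natural killer and B cell markers summed to 12.6 to 24.1 CPM with ointment and 15.2 to 27.3 CPM with saline, and Cd79a was at 0 in 1 library. Fibroblast markers summed to 17791 to 58629 CPM with ointment and 35675 to 54214 CPM with saline. Of the 6 fibroblast markers, 5 were negative, 1 was positive and 0 passed in edgeR. Endothelial markers summed to 345 to 602 CPM with ointment and 563 to 819 CPM with saline. All 6 endothelial markers were negative and 0 passed in edgeR. At an unadjusted p under 0.05 by edgeR, 3 of them were lower, and DESeq2 called 2 lower. Pecam1 was lower without overlap (log2 fold change -0.52, edgeR adjusted p = 0.0646). Keratinocyte, fibroblast and endothelial markers were detected in every library of the labelled ulcer tissue. The macrophage sum did not overlap between the groups, and was highest in ointment 5 and lowest in saline 3, as was Lyz2, its largest part. Ccr2, Ly6c2 and C1qc were also highest in ointment 5. Adgre1, Cd68, Fcgr1, Mertk and C1qb instead had their lowest ointment level there, so the rank of ointment 5 in the sum does not hold for each marker. The neutrophil sum did overlap and had its extremes in ointment 5 and saline 1. The part of these cells in the values of Tlr2, Tlr7, Irak3, Nfkbia and Tnfaip3 was not tested.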

How the data were processed

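Ulcer tissue was profiled by RNA sequencing in 10 libraries, and libraries were prepared with a SMARTer mRNA kit from column-purified total RNA, per the labels' protocols. The submitters' processing notes name GRCm38 (mm10) as build. The aligner, the counter and the use of strand are not stated in the labels or headers. The authors deposited whole numbers per gene, described as raw counts, with no normalization, and here they are called estimated counts. That name is an inference from the pattern of low values given next. Of the columns, 0 lacked a matching label. Multiples of 4 made up 34.3% to 36.3% of the values from 1 to 12 in each library, but 24.5% to 25.5% of those over 1000. The cause of this excess was not tested, so it is not certain that the values are estimates. They were treated as estimated counts, which needed no rounding, and a fit to values divided by 4 was an alternative.

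Groups were compared with the quasi-likelihood test of edgeR 4.0.16 in R 4.3.3, using TMM scaling, robust dispersion, filterByExpr (minimum count 10, minimum total 15) and group as the only term, on all genes. P-values were two-sided and Benjamini-Hochberg adjusted over 18509 genes, with a threshold of 0.05. Standard errors of the log2 fold change are not an output of this test, and were derived from the fold change and the F statistic. The 95% intervals were built from them with the t distribution. Alternatives were DESeq2 (1.42.0), limma voom (3.58.1), other scalings and filters, a replicate block and libraries left out. Every member is named. Per-library levels are given for the 3 with the smallest p in each role group and, added after its values were seen, for Nlrp3, and among the 72 other pathway genes for those past the threshold. The members, lists and tests were chosen with earlier results of these data known. The edgeR fit alone was tested on simulated counts. Exon lengths came from GENCODE release 21, and words shared between genes were counted over 50 bases of transcript. Promoter windows came from RefSeq.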

Additional observations from a re-analysis of the deposited data

Results flagged for a closer look

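By Dixon's test (critical value 0.71 for 5 samples), 82 groups were examined for the 41 genes. Of these, 13 held a sample far from the other 4 of its group. The nominal rate of about 1 in 20 holds for independent groups of normally distributed values. These groups come from the same 10 libraries and CPM was not transformed, so the 13 cannot be read against that rate. Ointment 5 and saline 1 held 4 each, and ointment 3, ointment 4, saline 2, saline 4 and saline 5 held 1 each. In ointment 5, Tlr2 was 267.7 CPM (others 66.7 to 122.1), Tlr4 was 9.35 CPM (others 2.44 to 4.18), Nfkbia was 1135 CPM (others 116 to 265) and Nfkbiz was 551 CPM (others 66.2 to 204). In saline 1, Tlr2 was 37.9 CPM (others 63.7 to 72.3), Tlr8 was 0.399 CPM (others 3.85 to 5.22), Tlr11 was 1.85 CPM (others 0 to 0.0804) and Tirap was 17.96 CPM (others 3.54 to 6.39). Elsewhere, Tlr9 was 1.88 CPM in ointment 3 (others 0 to 0.0757) and Ticam2 was 3.28 CPM in ointment 4 (others 0.262 to 0.776). Tlr13 was 24.0 CPM in saline 2 (others 1.25 to 3.57), Pycard was 15.3 CPM in saline 4 (others 139 to 184) and Ticam1 was 0.0496 CPM in saline 5 (others 15.6 to 17.0). Of the 13 values, 9 were high and 4 were low.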

How the results depend on the processing

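The count of genes of the list called was 0 in edgeR, 6 with DESeq2 and 0 to 1 over the 10 fits that left out a library, where the 1 was Nod1 without ointment 4. Of all tested genes 310 were called, against 1682 with DESeq2, 0 with the replicate block, 59 with 4 libraries per group, 43 without saline 1 and 2 (added after the data were seen) and 102 (without ointment 3) to 422 (without ointment 4) with a library left out. The other pathway genes gave 1, against 18 with DESeq2, 0 with the replicate block, 0 without saline 1 and 2, and 0 to 2 with a library left out. The median fold change of the list, 0.33, was 0.18 to 0.43 over those fits. Replicate numbers 1 to 5 are shared by the groups. For this check, the mean of its own group was subtracted from the log CPM of each gene. These deviations correlated at -0.077 to 0.056 between same-numbered samples, and only number 1 correlated best with its own number. No pairing was seen, but with 5 samples per group this check cannot exclude one. The block took the Naip2 adjusted p to 0.184.

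Several values changed sign. Tlr5 gave 0.0034 with DESeq2 size factors, 0.0033 with the DESeq2 test, 0.13 with limma voom, 0.065 with the block, 0.0031 with values divided by 4, and -0.19 to 0.14 with a library left out. Tirap gave 0.0099 with DESeq2 size factors and with the DESeq2 test, 0.19 with limma voom, 0.22 with the block, 0.0075 with values divided by 4, 0.40 with 4 libraries per group, 0.66 without saline 1 and 2, and -0.20 to 0.57 with a library left out. Irak1 gave -0.026 with upper-quartile scaling, -0.052 with library sizes alone, -0.0019 with a filter at 5 CPM, -0.046 with limma voom, -0.074 with 4 libraries per group, and -0.075 to 0.074 with a library left out. Nlrp3 gave 0.0098 with the block and -0.74 to 0.068 with a library left out. Pycard gave 0.076 with limma voom, Ticam1 -0.16 to 0.27 with a library left out, Tlr13 -0.070 with 4 libraries per group, and Ly96 -0.012 with 4 libraries per group and -0.012 without saline 1 and 2. The causes were not tested. No other fold change of the list reversed under the alternatives run. All scalings moved the median of all genes by under 0.1. At totals of 47.8 to 62.9 M, levels near 0 rest on few counts: 3 counts were 0.0496 CPM for Ticam1 in saline 5.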
